A study of Mus musculus with 2 samples.

Results

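Alveolar type 2 cells, the surfactant-secreting epithelial cells of the lung alveolus, were studied in 2 single-cell RNA libraries. They were selected on 1 measured value, as the barcodes in which Sftpc made up at least 5% of all transcript molecules (unique molecular identifiers, UMIs). Only barcodes with 500 or more detected genes and no more than 10% mitochondrial UMIs entered. Too few genes removed 50 barcodes from the niche library and 9 from the distal one, and the mitochondrial limit removed 0. This gave 230 cells among 3410 kept barcodes. The niche library contributed 16 of 1423 (1.12%, exact binomial 95% interval 0.644% to 1.82%) and the distal library 214 of 1987 (10.8%, 9.44% to 12.2%). Both libraries came from CD45- cells of mouse lung, collected 7 days after Labelling-4T1 cells had been given intravenously. 4T1, a breast cancer line from the mouse, forms lung metastases, and the labelling derivative releases a fluorescent protein that nearby cells take up. Niche cells are the cells so marked and distal lung cells are the unmarked ones of the same kind of lung, so both groups had been exposed to the injected tumour cells and neither is a tumour-free lung. Strain, age, number of animals and gates were not given in the sources used here. Each group was 1 library: no test between groups was possible, differences have no replicate check, and all intervals cover counting error only.

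Alveolar type 2 cells make, store and recycle surfactant, the lipid and protein film that keeps alveoli open at low volume, in secretory organelles called lamellar bodies. They are also the progenitors that renew the alveolar epithelium, and they carry antigen-presentation and antimicrobial genes. Interferons act on such cells through transcription factors that bind the interferon-stimulated response element (ISRE) and the gamma-activated site (GAS) of target promoters.

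The members stood apart in Sftpc, the value that chose them. The Sftpc share was 6.46% at the lowest, 18.7% at the median and 26.2% at the highest in the 16 niche cells, against 6.34%, 24.2% and 35.1% in the 214 distal cells. The barcodes nearest to the limit from below had 3.54% (niche library) and 4.15% (distal library), and 5 niche and 7 distal barcodes outside the group exceeded 1%. The other 4 markers of the type were present too: Sftpa1 and Sftpb, which encode surfactant proteins A and B, had UMIs in every member, as Slc34a2, a phosphate transporter gene, had in 16 of 16 niche and 213 of 214 distal cells. Lamp3, a lamellar body membrane gene, had UMIs in 15 niche and 195 distal cells. Sftpc UMIs also appeared in other cells, at 242 CPM (UMIs scaled to library depth) in 475 niche and 1922 CPM in 1297 distal barcodes classed by endothelial markers, against 182365 and 230546 CPM in the members.

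**Figure D1:**
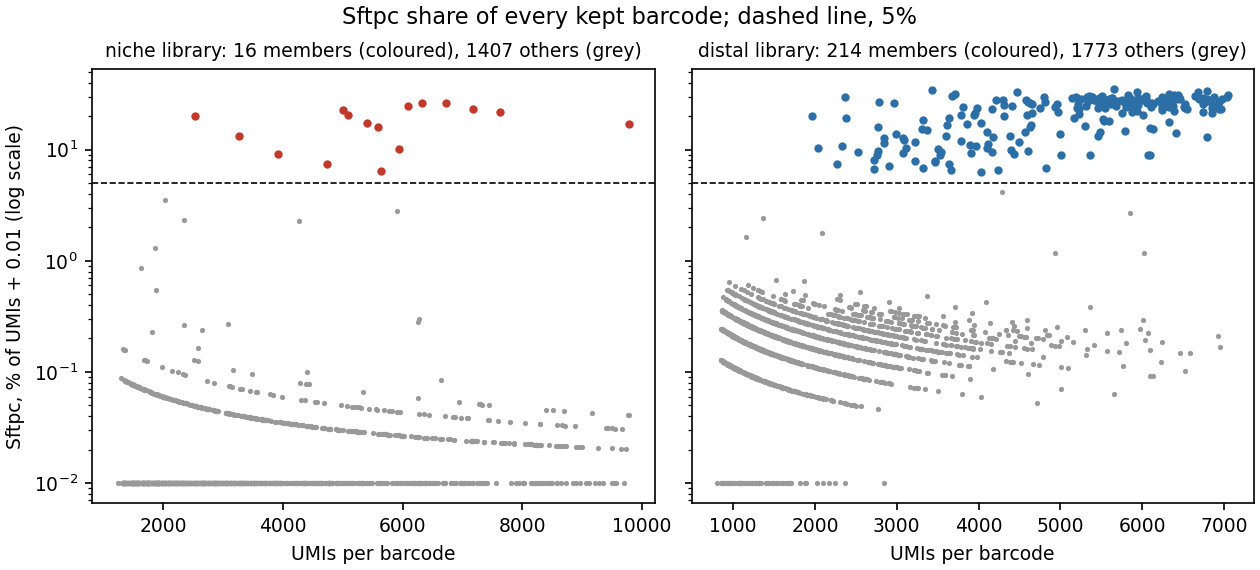
Sftpc share of UMIs (log scale, 0.01 added) against UMIs per barcode for every kept barcode of the niche library (left) and the distal library (right), with the 5% limit dashed. Members stand above a gap in which few barcodes lie, and most distal members are among the deepest barcodes of their table.

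Depth was similar between the groups. Members held 90875 niche and 1090854 distal UMIs, which was 1.77% and 22.8% of the UMIs of kept barcodes. UMIs per member ran from 2530 over a median of 5613.5 to 9779 in niche members and from 1966 over 5439.5 to 7051 in distal members, while other kept barcodes had medians of 2933 and 1813. The distal table ended at 7051 UMIs, and 18 of its 20 deepest barcodes were members. In the niche table, which ended at 9784, the count was 1 of 20. A shared upper limit on depth would leave out 3 niche members, and the effect of that limit on the number of distal cells was not tested. Mitochondrial UMIs had a median of 3.05% in niche and 2.94% in distal members. No barcode sequence was shared between the members of the libraries. Scrublet called 0 niche and 8 distal members doublets, and these were kept.

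RNA of other cell types was low but not equal in the members. The 8 endothelial markers summed to 13 UMIs in niche and 513 in distal members, which was 0.934% and 2.76% of their level in the endothelial-marker barcodes, and 13 distal cells held 270 of the 513. The 8 mesenchymal markers summed to 37 niche and 109 distal UMIs, 1.72% and 0.480% of the level in mesenchymal-marker barcodes. Immune markers summed to 0 niche and 16 distal UMIs. Multiplying each gene's level in those classes by these shares gives the level such carried RNA would reach, which is given below for a number of genes.

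For each gene the members' UMIs were summed per library and scaled to the members' total over the 10198 genes listed in both tables (90741 niche and 1079526 distal UMIs), and the niche level was divided by the distal level with 0.5 UMI added to each sum. Genes with 10 or more UMIs in the libraries together count as measured. A gene was called higher or lower when its ratio was 2-fold or more and its exact conditional binomial 95% interval excluded equality. Of 6934 measured genes 281 (4.05%) were called higher and 56 (0.808%) lower, with a median log2 ratio of 0.28. With the total taken without surfactant, lysozyme, secretoglobin and mitochondrial genes, the counts were 209 and 92 and the median 0.15. The median was nearer to 0 at higher counts: over the 407 genes with at least 300 UMIs it was 0.02, and it was 0.06 when the added UMI was shared in proportion to depth. Of the 56 genes called lower, 10 had no niche UMI, and none of these 10 reached 2-fold with 3 UMIs in place of the 0. Because the niche sum is smaller, a low-count gene can be called higher more readily than lower. Cav1, at 0 niche and 41 distal UMIs, was not called, while Sod3 was called higher on 5 niche and 5 distal UMIs. The shares of higher and lower calls are therefore not on equal terms. The shares of 4.05% higher and 0.808% lower are the background for every count of calls in members below. Gene lists were chosen with earlier results of these data known, so their counts are descriptions and not tests.

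The surfactant genes differed little. Sftpc, at chromosome 14 from 70520941 to 70524081 (mm10), had 16548 niche and 248880 distal UMIs and a log2 ratio of -0.34, a description since it chose the cells. Sftpa1 had 22162 CPM in niche and 26716 CPM in distal members (log2 ratio -0.27, 95% interval -0.34 to -0.20). Sftpb followed it at 10128 and 12697 CPM (-0.33, -0.42 to -0.23). Sftpd, the gene of surfactant protein D, a collectin of airway defence, went the other way at 6006 CPM in niche and 4206 CPM in distal members (0.52, 0.38 to 0.64). None of Sftpa1, Sftpb and Sftpd reached 2-fold, and their intervals excluded equality.

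Genes of lamellar bodies and secretion mostly stayed within 2-fold. Of 17 measured genes for lamellar bodies and secretion, 0 were called higher and 1 lower, with a median of 0.24. Abca3, the lipid pump of lamellar bodies, had 495.9 CPM in niche and 496.5 CPM in distal members (0.01, -0.47 to 0.44), Slc34a2 had 2414 and 2417 CPM (0.00, -0.21 to 0.20), and Napsa, an aspartic protease gene used in surfactant protein processing, had -0.04. Lamp3 had 0.24 (-0.16 to 0.60), Ctsh, a protease gene for the same processing, 0.59 (0.27 to 0.88), and the mucin gene Muc1 0.73 (0.29 to 1.12). Cxcl15, a lung chemokine gene, had 0.26, the lectin gene Chil1 0.41, the complement gene Hc 0.18 and Dram1 0.24. Lpcat1, an enzyme of surfactant lipid remodelling, had 0.26, the lipid flippase gene Atp11a 0.34, the secretion gene Rab27a 0.38 and Sfta2 -0.21. Below 0 stood Pla2g1b, a phospholipase gene (-0.69, -1.29 to -0.18), and Ppp1r14c, a phosphatase inhibitor gene (-0.71, -1.35 to -0.18). The called gene was S100g (chromosome X, 162961992 to 162964599, mm10), which encodes the calcium-binding protein calbindin-D9k, with 661 CPM in niche and 2106 CPM in distal members (-1.66, -2.07 to -1.30). It had UMIs in 12 of 16 niche and 205 of 214 distal cells, and in 0.632% of niche and 3.47% of distal endothelial-marker barcodes.

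Transcription factor genes of the type had wide intervals, of which those of Nkx2-1, Etv5 and Cebpa included equality. Nkx2-1, the lung epithelial regulator, had 25 niche and 293 distal UMIs (log2 ratio 0.05, -0.63 to 0.61), Etv5, a target of fibroblast growth factor signalling, 29 and 367 (-0.07, -0.69 to 0.46), and Cebpa 18 and 270 (-0.30, -1.11 to 0.35). Id2, an inhibitor of helix-loop-helix factors, had -0.99 (-1.75 to -0.38), and the endoderm factor genes Gata6 and Klf5 had 0.26 and 0.66 on 6 and 5 niche UMIs. Creb3l1, a membrane-bound factor of the secretory pathway, had 0 niche and 49 distal UMIs, which is at least 1.37-fold lower with 3 UMIs over the niche cells in place of the 0. It was the only call among 7 measured genes of this list.

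**Figure D2:**
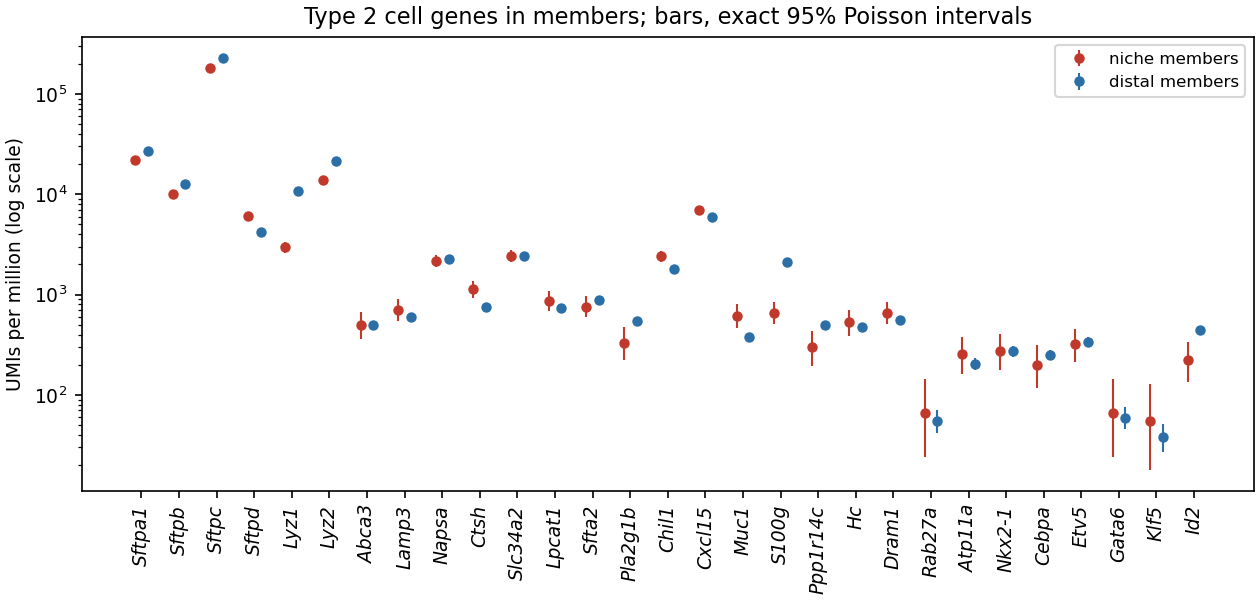
Level in CPM (log scale) of alveolar type 2 genes in niche members (red, left of each pair) and distal members (blue), with exact 95% Poisson intervals. Creb3l1, with 0 niche and 49 distal UMIs, is not drawn. Of the genes drawn, Lyz1 and S100g lie lowest in the niche relative to the distal library. Most secretion genes and transcription factor genes drawn have overlapping intervals.

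Of the 2 lysozyme genes 1, Lyz1, was called lower. Lyz1 and Lyz2 are tandem mouse genes for lysozyme, an enzyme that cleaves bacterial cell walls, and lie next to each other on chromosome 10 (mm10, minus strand, 117287795 to 117292868 and 117277541 to 117282272). Lyz1 had 269 UMIs and 2964 CPM in niche members, against 11751 UMIs and 10885 CPM in distal members (log2 ratio -1.87, -2.06 to -1.70). Lyz2 had 13831 CPM in niche and 21412 CPM in distal members (-0.63, -0.71 to -0.55). The pair is close in sequence, so reads of one could be counted for the other, but the ratios were unequal. Their RefSeq promoters (GRCm38.p6, from 250 bases before to 50 after the start, both on the minus strand) are shown because the genes differ in level while the windows are 82.5% identical over a global alignment. Capitals mark the bases that differ in that alignment, 49 mismatches and 4 gap columns, of which 1 mismatch lies in the last 100 bases.
Lyz1, chr10:117292819-117293118, minus strand: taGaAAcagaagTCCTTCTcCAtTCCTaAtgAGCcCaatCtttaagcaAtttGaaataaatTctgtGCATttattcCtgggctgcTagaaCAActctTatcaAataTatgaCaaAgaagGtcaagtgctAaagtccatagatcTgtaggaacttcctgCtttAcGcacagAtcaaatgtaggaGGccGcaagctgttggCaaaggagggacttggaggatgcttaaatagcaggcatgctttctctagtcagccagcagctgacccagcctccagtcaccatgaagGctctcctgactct
Lyz2, chr10:117282223-117282522, minus strand: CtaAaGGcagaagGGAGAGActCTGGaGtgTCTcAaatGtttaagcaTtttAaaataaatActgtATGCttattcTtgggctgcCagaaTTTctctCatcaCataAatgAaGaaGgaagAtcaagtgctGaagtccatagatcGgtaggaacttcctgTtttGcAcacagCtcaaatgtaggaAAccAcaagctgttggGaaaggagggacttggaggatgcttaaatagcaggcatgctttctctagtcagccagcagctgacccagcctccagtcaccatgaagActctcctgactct

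Lyz1 was also the gene that varied most among the distal members, with an observed variance 122 times the Poisson variance at the cells' depths. Per 10000 UMIs of a cell, Lyz1 had 0 at the lowest, 6.63 at the median and 107 at the highest in niche cells, against 0, 18.2 and 1312 in distal cells, whose quartiles were 2.83 and 171. Distal cells were spread over the whole range. More than 10 per 10000 was reached by 7 of 16 niche and 110 of 214 distal cells and more than 100 by 1 niche and 75 distal cells, while 4 niche and 26 distal cells had no Lyz1 UMI. Endothelial-marker barcodes held a Lyz1 UMI in 2.11% of the niche and 17.9% of the distal library, so distal cells with 1 or 2 UMIs are near that background. Lyz2 did not follow Lyz1 from cell to cell (Spearman rho -0.24 over 214 distal cells of 1 library, given as a description).

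Other genes that varied among distal members were of several kinds. Scgb1a1, the club cell secretoglobin gene, had a variance 105 times the Poisson value, and 5 cells held 740 of its 1157 distal UMIs. Its total did not differ beyond counting error (881.6 CPM in niche and 1072 CPM in distal members, log2 ratio -0.27, -0.63 to 0.05). Scgb1a1 UMIs also appeared in other cells. Endothelial-marker barcodes had 479 CPM in niche and 118 CPM in distal, and mesenchymal-marker barcodes had 813 and 127 CPM. The part of such background in the levels of the members was not tested. Malat1, a nuclear RNA, ranged from 72.6 over 283 to 1255 per 10000 in niche cells and from 2.74 over 240 to 1131 in distal cells. Sftpc, Lyz2, the actin gene Actb, Sftpa1, S100a6, Ifi27l2a, Cd74, B2m and the thymosin gene Tmsb4x made up the rest of the 12 most variable genes, with values between 10.8 and 117 times the Poisson variance.

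Most measured interferon response genes were higher in the niche members. Of 35 genes on the list 27 were measured, and 20 of these were called higher and 0 lower, beside 4.05% of all measured genes, with a median log2 ratio of 2.66. A gene with few distal UMIs, such as Zbp1 (18 niche and 6 distal), counted as measured only through its niche UMIs. This favours high ratios, and the list was chosen with earlier results of these data known, so the count and median are descriptions. All 27 ratios lay above 0. GTPase genes of cell-autonomous immunity were among them. Iigp1 had 68 niche and 38 distal UMIs, or 749 and 35.2 CPM (4.40, 3.82 to 5.02), with 36.2 and 19.1 CPM for carried RNA. Igtp had 430 CPM in niche and 17.6 CPM in distal members (4.59, 3.78 to 5.48), and Ifi47 had 3.42 (2.38 to 4.43). The guanylate-binding protein gene Gbp2 (4.17, 3.19 to 5.23) stood beside them, as did Gbp2b (4.45, 3.52 to 5.48), which is outside the list. In the same family Gbp4 had 1.86 (0.62 to 2.86) and Gbp7 1.67 (-0.20 to 3.03). Carried RNA would reach 7.38 CPM of Igtp, 6.87 of Gbp2b, 5.97 of Gbp2 and 10.7 of Ifi47 in distal members, a large share of the distal levels and a small one of the niche levels. Gbp2b and Gbp2 are related neighbours, and reads shared between them could not be told apart here. Without the member with most UMIs in each library, Gbp2 had 3.57.

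The rest of the list held sensors, effectors and factors. Zbp1, a sensor of nucleic acids in the Z form, had 198 CPM in niche and 5.56 CPM in distal members (5.08, 3.76 to 6.78). Isg15, a ubiquitin-like modifier, had 617 and 88.0 CPM (2.82, 2.31 to 3.30), and Bst2, the tetherin gene, 573 and 90.8 CPM (2.66, 2.14 to 3.16). Among transcription factor genes, Irf7 had 3.26 (2.02 to 4.44), while Irf1 had 0.62 (-0.24 to 1.32) and Irf9 0.54 (-2.89 to 2.29). Rsad2, the viperin gene, had 8 niche UMIs, from 2 cells, and 0 distal UMIs. It fell below the UMI minimum and was not among the measured genes. With 3 UMIs over the distal cells in place of the 0, Rsad2 would stand 31.7-fold higher. That value keeps the niche sum as counted, so it is no lower limit. Cxcl9, at 8 niche UMIs and 1 distal UMI, was below the minimum too. Cxcl10, a chemokine gene, had 55.1 CPM in niche and 9.26 CPM in distal members, below the 77.7 CPM that carried RNA would reach in the niche, and its interval included equality without the member with most of its UMIs in each library (2.22). Ifitm3 had 1047 and 287 CPM, beside 169 and 172 CPM for carried RNA.

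The niche cells were unequal in this response. The list summed to 7.65 UMIs per 10000 at the lowest, 25.7 at the median and 211 at the highest in the 16 niche cells, against 0, 5.16 and 99.6 in the 214 distal cells. All 16 niche cells lay above the distal median, 8 above the distal 95th percentile of 30.6 and 4 above every distal cell, so the ranges overlapped. The 5 highest cells held 75.3% of the niche UMIs of the list. In 6 niche cells the list had 55, 62, 80, 90, 118 and 65 UMIs, and in the other 10 it had 3 to 20. Iigp1 had 12, 12, 13, 12, 7 and 11 UMIs in the same 6 cells and at most 1 in any other niche cell. With each cell thinned to 1200 UMIs, the median was 4.5 UMIs in niche and 1 UMI in distal cells. Over the 16 niche cells, rank correlations of the list were 0.89 with the MHC class I list and 0.77 with Ly6a. They were 0.01 with mesenchymal and -0.03 with endothelial markers. All describe cells of 1 library. The markers summed to 37 mesenchymal and 13 endothelial UMIs, and 8 niche cells had no endothelial one. Such low counts cannot show whether carried RNA follows the list, which was not tested.

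Promoters of genes with high ratios are shown for their ISRE and GAS letters. The ISRE core was searched as GAAANNGAAA and GAS as TTCNNNGAA, on both strands. ISRE was found in 1131 of 32851 RefSeq mouse promoters of 300 bases (3.44%) and GAS in 2726 (8.30%). Of the 12 named genes with the highest ratios 9 had a promoter entry, of which 5 held the ISRE core and 4 GAS. In the interferon list 17 of 28 genes with a promoter entry held the ISRE core and 8 GAS, and in the MHC class I list 5 and 2 of 19. These are counts of genes, while 3.44% and 8.30% are shares of promoters. The interferon count includes genes that were not measured, so it describes the list and not the ratios. The 5 of the 12 that held the ISRE core are given with B2m, an MHC class I gene outside the 12, on the strand of the gene (GRCm38.p6) and with each match in capitals. In Igtp the ISRE core began 34 bases before the start and GAS stood beside it, and Isg15 held 3 overlapping cores. A match describes these letters and shows no binding.
Igtp, chr11:58199306-58199605, plus strand: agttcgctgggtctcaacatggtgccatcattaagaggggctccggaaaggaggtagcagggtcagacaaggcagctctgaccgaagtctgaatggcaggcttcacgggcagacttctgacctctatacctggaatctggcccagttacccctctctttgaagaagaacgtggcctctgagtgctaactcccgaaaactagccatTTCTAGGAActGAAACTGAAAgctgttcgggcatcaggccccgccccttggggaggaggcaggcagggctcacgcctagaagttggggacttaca
Gbp2b, chr3:142594597-142594896, plus strand: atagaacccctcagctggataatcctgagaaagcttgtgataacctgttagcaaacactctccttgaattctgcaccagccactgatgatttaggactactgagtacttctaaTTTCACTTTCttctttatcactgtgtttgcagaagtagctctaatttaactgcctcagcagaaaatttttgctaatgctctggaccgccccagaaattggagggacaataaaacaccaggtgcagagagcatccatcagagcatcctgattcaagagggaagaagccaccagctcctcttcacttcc
Gbp2, chr3:142620413-142620712, plus strand: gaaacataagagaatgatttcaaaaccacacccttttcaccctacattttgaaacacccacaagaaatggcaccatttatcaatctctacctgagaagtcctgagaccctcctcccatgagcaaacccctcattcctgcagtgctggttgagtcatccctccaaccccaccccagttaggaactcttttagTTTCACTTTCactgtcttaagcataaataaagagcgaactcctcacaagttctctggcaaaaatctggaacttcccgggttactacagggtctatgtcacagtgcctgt
Isg15, chr4:156200769-156201068, minus strand: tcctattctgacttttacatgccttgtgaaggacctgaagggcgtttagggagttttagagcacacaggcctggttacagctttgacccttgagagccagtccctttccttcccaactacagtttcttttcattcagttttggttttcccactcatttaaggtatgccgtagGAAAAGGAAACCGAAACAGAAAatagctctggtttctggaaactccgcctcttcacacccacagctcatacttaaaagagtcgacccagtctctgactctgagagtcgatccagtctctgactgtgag
Bst2, chr8:71537423-71537722, minus strand: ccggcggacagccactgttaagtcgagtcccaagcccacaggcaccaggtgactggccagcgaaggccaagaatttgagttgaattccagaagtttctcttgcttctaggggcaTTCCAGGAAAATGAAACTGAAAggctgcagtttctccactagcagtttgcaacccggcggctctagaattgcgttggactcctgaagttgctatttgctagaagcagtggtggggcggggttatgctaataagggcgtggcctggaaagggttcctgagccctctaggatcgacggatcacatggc
B2m, chr2:122147437-122147736, plus strand: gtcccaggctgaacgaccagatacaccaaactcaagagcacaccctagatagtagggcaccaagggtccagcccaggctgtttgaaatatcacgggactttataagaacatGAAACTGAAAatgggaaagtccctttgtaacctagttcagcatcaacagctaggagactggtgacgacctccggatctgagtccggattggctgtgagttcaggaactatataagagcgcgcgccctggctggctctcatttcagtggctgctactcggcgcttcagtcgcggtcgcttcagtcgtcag

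Genes for antigen presentation by MHC class I were higher as well. Of 22 listed genes 20 were measured, 17 were called higher and 0 lower (4.05% and 0.808% of all measured genes), with a median of 1.64 and all 20 ratios above 0. B2m, the common light chain, had 3978 CPM in niche and 854 CPM in distal members (2.22, 2.04 to 2.40), although 1 niche cell held 143 of its 361 UMIs. The heavy chain genes H2-K1 and H2-D1 had ratios of 1.71 (1.44 to 1.97) and 1.27 (1.10 to 1.44). These genes have close relatives, among them H2-Q7 (2.70) and H2-Q6 (1.43), and counting could split reads between them. The immunoproteasome genes Psmb9 (3.01, 2.32 to 3.67) and Psmb8 (2.69, 2.23 to 3.14) and the peptide transporter gene Tap1 (3.05, 2.09 to 3.96) had higher ratios than H2-K1 and H2-D1. The list summed to 25.9, 59.1 and 617 per 10000 at the lowest, median and highest niche cell, against 5.38, 31.6 and 391.8 in distal cells.

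MHC class II genes, which alveolar type 2 cells express constitutively, differed less. Of 7 measured genes 1, the peptide-loading gene H2-DMa (1.63, 0.96 to 2.22), was called higher, beside 4.05% of all measured genes. The list median was 0.68. With members thinned to 1200 UMIs H2-DMa had 0.70, short of 2-fold. Cd74, the invariant chain, had 11880 CPM in niche and 7732 CPM in distal members (0.62, 0.53 to 0.71), H2-Ab1 had 2182 and 1126 CPM (0.96, 0.73 to 1.17), and H2-Aa had 0.78, 0.55 to 0.998. The median was 0.35 without the 6 niche and 19 distal members that held 5 or more endothelial and mesenchymal marker UMIs.

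**Figure D3:**
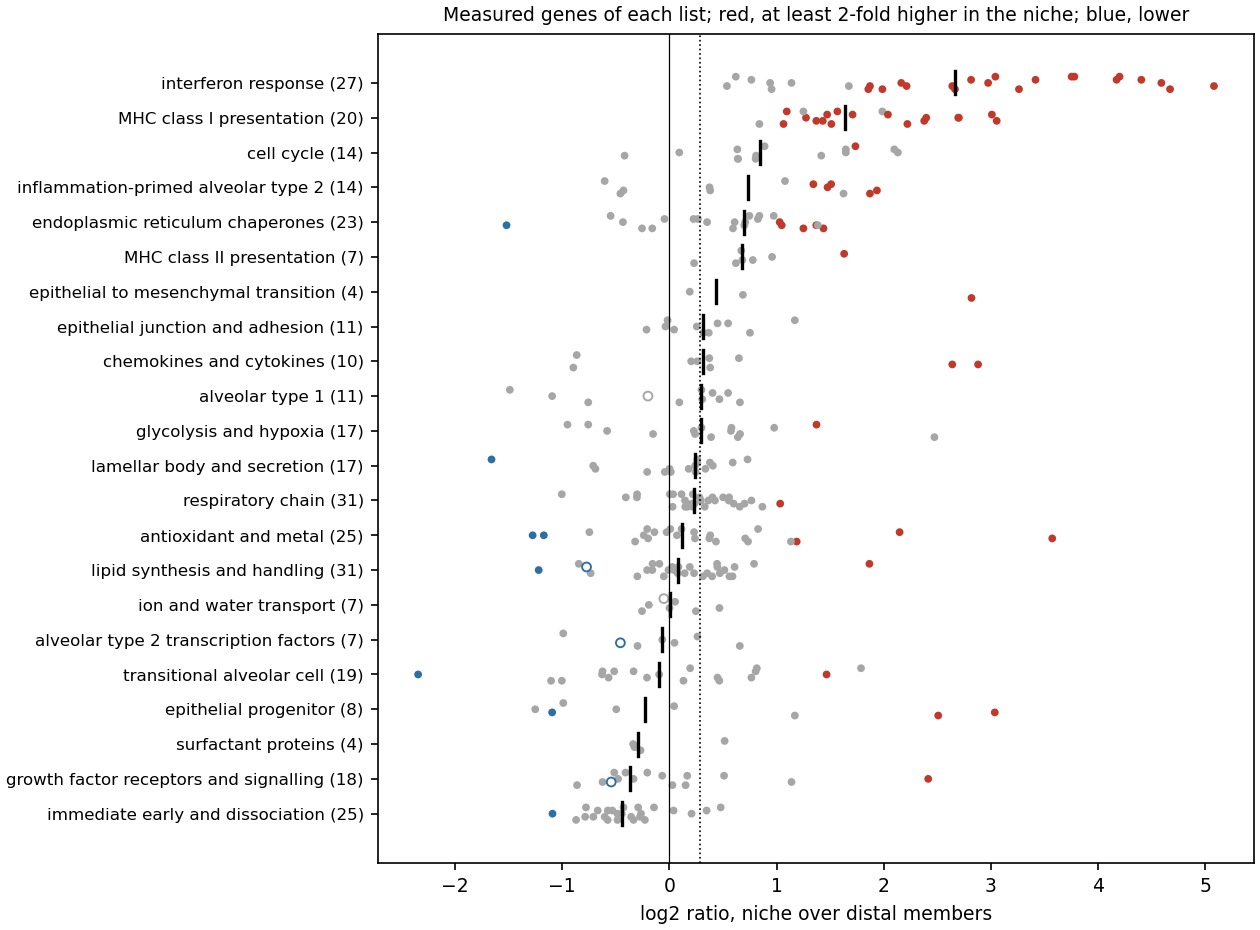
Log2 ratio of niche over distal members for each measured gene of 22 lists, with the number of measured genes in brackets. Red points are called at least 2-fold higher, blue points lower, open points stand at the bound of a gene with 0 UMIs in 1 library (not drawn where the bound changes direction), thick bars are list medians and the dotted line is the median of all measured genes. The medians of the interferon (2.66) and MHC class I (1.64) lists lie to the right of those of the other lists drawn.

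Beyond these lists Ly6a, Ifi27l2a, Itih4 and Gbp2b, the last named above, were among the 12 genes with the highest ratios. Ly6a (chromosome 15, 74994877 to 74998031), the gene of the stem cell antigen Sca-1, had 1708 CPM in niche and 208 CPM in distal members (3.04, 2.73 to 3.34). It had UMIs in 14 of 16 niche and 85 of 214 distal cells, and 1 niche cell held 73 of 155 UMIs. Endothelial cells express this gene themselves, with a UMI in 91.4% of niche and 86.6% of distal endothelial-marker barcodes, at median depths of 2332 and 1721 UMIs. With members thinned to 1200 UMIs the shares were 56.3% of niche and 14.95% of distal members. Without the member with most Ly6a UMIs in each library the ratio was 2.42. Carried RNA would reach 91.8 CPM in niche and 112 CPM in distal members, beside the measured 1708 and 208 CPM. Ifi27l2a, an interferon-induced gene, had 1741 and 236 CPM (2.88, 2.59 to 3.17), and Itih4, an acute phase gene, 584 and 81.5 CPM (2.85, 2.32 to 3.35).

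Of 14 measured genes that mark inflammation-primed alveolar type 2 cells, 5 were called higher and 0 lower, beside 4.05% and 0.808% of all measured genes (median 0.73, or 1.21 without the 2 genes at 0 in the niche). Lcn2, an iron-binding lipocalin gene, had 1642 CPM in niche and 592 CPM in distal members (1.48, 1.20 to 1.73), and C3, the complement gene, 198 and 52.8 CPM (1.94, 1.06 to 2.70). Lrg1 had 1.34 (0.93 to 1.72), but 1 niche cell held 30 of 67 UMIs and without the highest cell of each library the ratio was 0.68. Without members with 5 or more endothelial and mesenchymal marker UMIs, Lrg1 had 0.11 and Lcn2 0.86. Il33, an alarmin gene, had 0.38 (-0.57 to 1.13), and Nfkbia, the inhibitor of NF-kB, -0.60 (-1.20 to -0.10). Among 10 measured chemokine and cytokine genes, 2 were called higher: Cxcl10, named above, and Il34, on 6 niche and 10 distal UMIs (2.88, 1.09 to 4.44). Cxcl1, a neutrophil chemokine gene, had -0.90, -2.04 to -0.06.

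Among lipid genes, 1 enzyme gene was called higher. Scd1 (chromosome 19, 44394450 to 44407709), the stearoyl-CoA desaturase that makes monounsaturated fatty acids, had 475 UMIs and 5235 CPM in niche members, against 1551 UMIs and 1437 CPM in distal members (1.87, 1.71 to 2.01). Per 10000 UMIs it had 1.58, 48.4 and 116 at the lowest, median and highest niche cell, against 0, 10.6 and 142 in distal cells. All 16 niche and 201 of 214 distal cells held a UMI, against 1.68% of niche and 2.47% of distal endothelial-marker barcodes. The fatty acid synthase gene Fasn (0.40, -0.12 to 0.85) and the lipid regulator gene Srebf1 (0.08, -2.00 to 1.37) had intervals that included equality. Cd36, a fatty acid uptake gene, had -0.85, -1.41 to -0.37. Of 31 measured lipid genes, 1 was called higher and 2 lower, beside 4.05% and 0.808% of all measured genes. The lower ones were Acot1, an acyl-CoA thioesterase gene (-1.22, -2.53 to -0.30), and Pltp, a phospholipid transfer gene, at 0 niche and 61 distal UMIs (at least 1.71-fold lower, with a carried level of 16.1 CPM in niche and 50.6 CPM in distal members, near the 56.5 CPM measured in distal members).

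**Figure D4:**
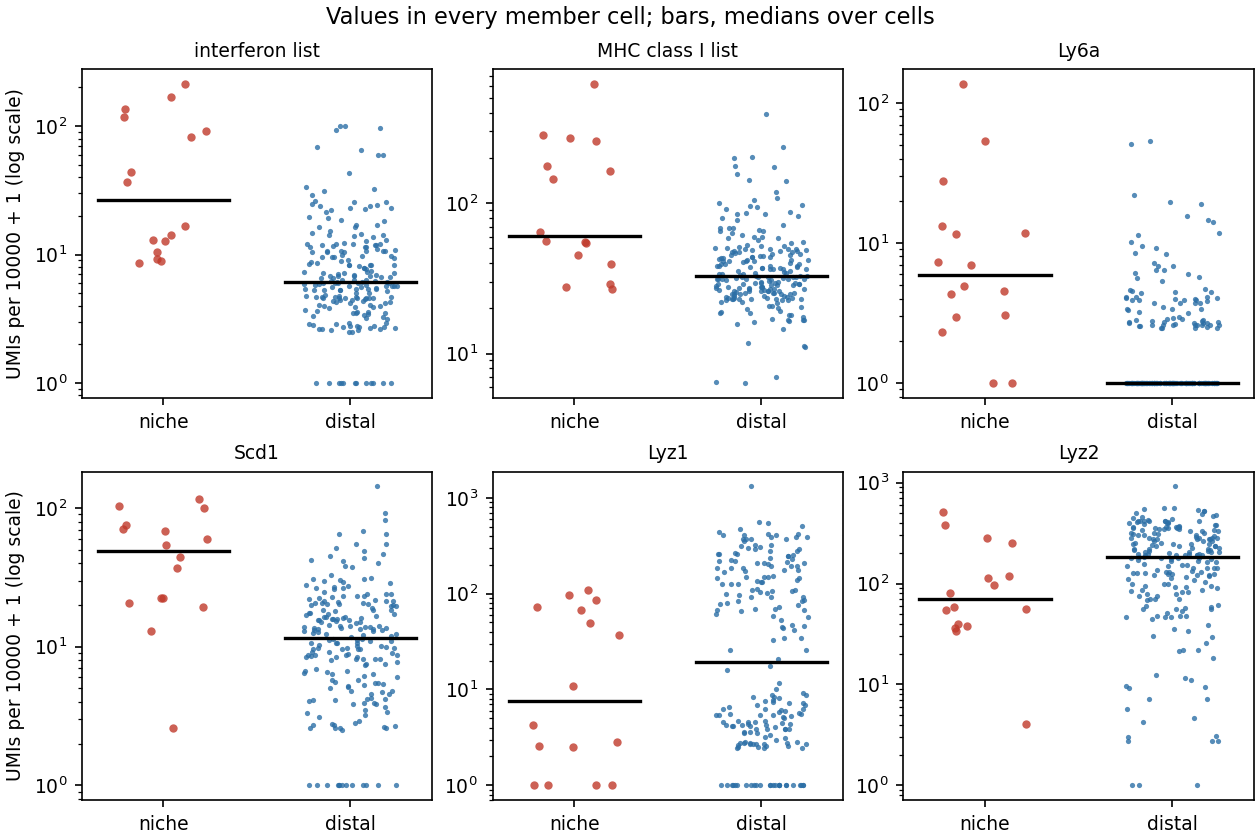
UMIs per 10000 of each member cell (log scale, 1 added) for the interferon and MHC class I lists and for Ly6a, Scd1, Lyz1 and Lyz2, in 16 niche cells (left) and 214 distal cells (right), with medians over cells as bars. The ranges overlap in every panel, and Lyz1 in distal cells runs from 0 to 1312.

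Genes of other alveolar states gave 2 calls. Of 11 measured alveolar type 1 genes 0 were called: Ager, the receptor gene typical of the flat type 1 cell, had 2138 CPM in niche and 2009 CPM in distal members (0.09, -0.13 to 0.30) and Aqp5, a water channel gene, 0.47 (-0.22 to 1.04). The junction gene Cldn18 had 0.55 and the membrane gene Emp2 0.66, with intervals above 0. Of 19 measured genes of the transitional alveolar state, 1 was called higher and 1 lower, with a median of -0.10. Krt8, its leading keratin gene, had -0.63 (-1.50 to 0.05), Cdkn1a, a cell cycle inhibitor gene, 0.82 (-0.08 to 1.54), and Krt18 0.19. Areg, the gene of the growth factor amphiregulin, was the lower one, with 3 UMIs in 1 niche cell and 211 UMIs in 68 distal cells (-2.34, -4.85 to -0.997), so that its niche level rested on that cell. Hbegf, a related growth factor gene, was the higher one (1.47, 0.32 to 2.38), and its interval included equality without the niche cell with most of its UMIs (0.95).

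Cell cycle genes had few UMIs, 170 in niche and 1316 in distal members, and the deepest niche cell held 77 of the 170. Of 14 measured genes 1, Pcna, a replication clamp gene, was called higher, on 10 niche and 37 distal UMIs, of which 1 niche cell held 7, and without the highest cell of each library the ratio was 0.39. Tuba1b, a tubulin gene, had 0.81 and H2afz, a histone variant gene, 0.64, with 14 and 17 UMIs in 1 niche cell. Epithelial junction genes had 0 calls among 11 measured, with Epcam, an epithelial adhesion gene, at 198 CPM in niche and 197 CPM in distal members (0.04, -0.77 to 0.70), Cdh1 at 0.26 and the claudin gene Cldn7 at 0.75 (0.13 to 1.29). Of 4 measured genes of the epithelial to mesenchymal transition 1, the galectin gene Lgals1 (2.82, 1.85 to 3.71), was called higher. Lgals1 had 187 CPM in niche and 26.9 CPM in distal members, with 53.2 and 7.11 CPM for carried RNA. Vim, the intermediate filament gene of mesenchymal cells, had 3 niche and 36 distal UMIs (0.19, -2.36 to 1.65), below its carried level, and Sparc, a matrix protein gene, 0.69 (0.16 to 1.15).

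Chaperones of the endoplasmic reticulum had a median above that of all genes. Of 23 measured genes 5 were called higher and 1 lower, beside 4.05% and 0.808% of all measured genes. The median was 0.70, against 0.28 over all measured genes. Calr, the calreticulin gene, had 1.37 (0.84 to 1.84), Dnajb11 1.44 (0.30 to 2.35), Pdia4 1.25, Pdia6 1.05 and Manf 1.03. Without the member with most UMIs of the gene in each library, Dnajb11 (1.17) and Pdia4 (1.04) had intervals that included equality, and Manf (0.90) and Pdia6 (0.85) stood below 2-fold. With members thinned to 1200 UMIs Pdia4 had 0.46 and Pdia6 0.18. Dnajb9, another cochaperone gene, had -1.52 (-3.58 to -0.30), or -0.64 with thinned members, and Hspa5, the main chaperone of the compartment, 0.59 (-0.03 to 1.12). Xbp1 and Ddit3, genes of the unfolded protein response, had -0.43 and -0.55 with intervals that included equality.

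Immediate early genes, which also respond to tissue dissociation, had ratios mostly below 0. Of 25 measured genes 21 had ratios below 0, with a median of -0.44, and 1 was called lower. That was Ier2 (-1.09, -1.67 to -0.60), which had -0.88 with Sftpc at 10% and -0.51 with Sftpc at 2% or more, so that the call was lost. Of the others, Junb had -0.87 (-1.27 to -0.52), Jund -0.79 and Fos -0.78 (-1.09 to -0.49). The same list had a median of -0.44 in mesenchymal-marker barcodes and -0.16 in endothelial-marker barcodes. Its part in other differences was not tested.

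Of 25 measured antioxidant genes 3 were called higher and 2 lower, beside 4.05% and 0.808% of all measured genes. Cbr2, a carbonyl reductase gene abundant in lung epithelium, had 1466 CPM in niche and 3314 CPM in distal members (-1.17, -1.44 to -0.93), and Gstm1, a glutathione transferase gene, -1.28 (-3.05 to -0.16). Gclc, which encodes the catalytic subunit of the first enzyme of glutathione synthesis, had 342 and 152 CPM (1.19, 0.57 to 1.73), and 0.79 without the 3 niche members deeper than any distal barcode. Without those 3 cells Cbr2 had -0.94, short of 2-fold. Gpx3 and Sod3 were higher on 9 and 5 niche UMIs, and carried RNA would reach 52.3 of 99.2 CPM of Gpx3 in niche and 21.5 of 23.2 CPM in distal members. For Sod3, at 55.1 CPM in niche and 4.63 CPM in distal members, it would reach 30.002 and 7.71 CPM. In energy metabolism, the glycolytic gene Gapdh (1.37, 0.96 to 1.75) was the 1 call of 17 glycolysis genes. Sdhb (1.03, 0.19 to 1.73) was the 1 call of 31 respiratory chain genes. Both were higher, as were 4.05% of all measured genes. Sdhb had 0.71 without the member with most of its UMIs in each library, and Gapdh had an interval that included equality with members thinned to 1200 UMIs. Below 2-fold with intervals above 0 stood Ldha, the lactate dehydrogenase gene (0.57), Atp5b, an ATP synthase gene (0.70), and the cytochrome oxidase genes Cox7a2 (0.77) and Cox7c (0.56).

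Growth factor and progenitor genes gave few calls, to be read beside 4.05% higher and 0.808% lower of all measured genes. Of 18 measured receptor and signalling genes, the receptor gene Erbb2 was higher on 6 niche and 14 distal UMIs (2.42, 0.68 to 3.82, or 2.18 with an interval that included equality without the member with most of its UMIs in each library), and Notch2 had 0 niche and 52 distal UMIs (at least 1.46-fold lower). Of 8 progenitor genes Ly6a and the integrin gene Itga6 (5 niche and 11 distal UMIs) were called higher and Cd24a lower (-1.09, -2.52 to -0.12). Cd24a had -0.33 with members thinned to 1200 UMIs and -0.96 with Sftpc at 2% or more, both short of 2-fold. Itga6 turned to -0.50 without the 3 niche members deeper than any distal barcode. None of 7 ion and water transport genes was called.

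The 12 genes with the lowest ratios, besides Lyz1, S100g, Areg and Cbr2, were mostly of low count. Ces1d, a carboxylesterase gene, had 121 CPM in niche and 387 CPM in distal members (-1.61, -2.69 to -0.82), Ptprb, a receptor phosphatase gene, 66.1 and 302.9 CPM (-2.08, -3.65 to -1.06), and Mettl7a1 143 and 380 CPM (-1.35, -2.33 to -0.62). Sepp1, the selenoprotein P gene, had -1.36 (-2.16 to -0.72). With members thinned to 1200 UMIs the ratios were -0.55 for Ces1d, -0.52 for Ptprb and -0.10 for Sepp1, all short of 2-fold, and the intervals of Mettl7a1, Ccnl1, Id3 and Rhob included equality. Ccnl1 had 1 niche and 137 distal UMIs (-2.95, -8.84 to -1.02), Id3 4 and 197, and Rhob 4 and 191. Id3 measured 44.1 CPM in niche and 183 CPM in distal members, with 40.2 and 42.4 CPM for carried RNA, and had -0.53 with Sftpc at 2% or more. Cldn5, an endothelial junction gene, had 11.0 CPM in niche and 99.1 CPM in distal members, below the 41.8 and 124 CPM of carried RNA. With Sftpc at 2% or more, which added 4 niche and 3 distal barcodes, Cldn5 had a ratio of 2.19.

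The interferon and MHC class I ratios were set beside those of other cells of the same libraries, classed as barcodes with at least 5 UMIs of one marker list and 3 times those of the others. The alveolar type 2 medians were 2.66 for interferon genes and 1.64 for MHC class I genes. In mesenchymal-marker barcodes (767 niche and 351 distal) 30 of 35 interferon genes and 16 of 22 MHC class I genes were called higher, beside 3.8% of all 9942 measured genes higher and 6.75% lower, with medians of 1.98 and 1.29. In endothelial-marker barcodes (475 niche and 1297 distal) 5 of 35 and 0 of 22 were called, beside 1.8% higher and 1.6% lower of 9688 genes, with medians of 0.34 and 0.06. Over the genes measured in the members, 23 of 27 interferon ratios and 19 of 20 MHC class I ratios were above those in mesenchymal-marker barcodes. In the same order, 27 and 20 were above those in endothelial-marker barcodes. These genes had to pass the UMI minimum in the members, which favours high member ratios where distal UMIs are few. For MHC class II the order differed, with 1 of 7 above the mesenchymal ratio and 7 of 7 above the endothelial one. The difference between classes was not tested, since each is 1 library a group. Baselines differed: Iigp1 stood at 35.2 CPM in distal members, against 359 CPM in distal mesenchymal-marker and 629 CPM in distal endothelial-marker barcodes, and at 749 CPM in niche members, against 1646 and 835 CPM.

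**Figure D5:**
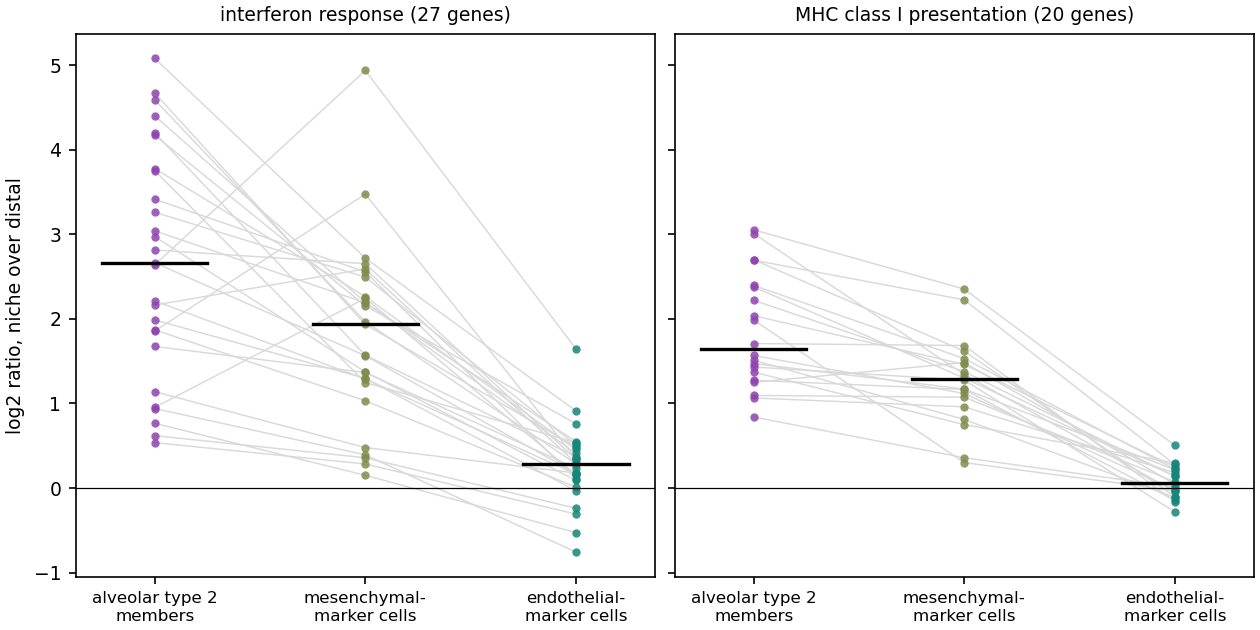
Log2 ratio of niche over distal for genes of the interferon list (left, 27 genes) and the MHC class I list (right, 20 genes) in alveolar type 2 members, mesenchymal-marker barcodes and endothelial-marker barcodes, with lines joining each gene and bars at medians. Medians were 2.66, 1.94 and 0.29 in the left panel and 1.64, 1.29 and 0.06 in the right panel, in the order of the classes.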

How the data were processed

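Single-cell RNA was measured in 1 niche and 1 distal library of mouse lung, made with Chromium Single Cell 3ʹ chemistry and sequenced on a HiSeq4000, per the labels' protocols. The authors deposited raw counts, as UMIs per gene and barcode. Cell Ranger 2.1.1, R 3.4.1 and mm10 are named, per the submitters' processing notes. Filters before deposit were not given in the sources used here, and each table lists some genes that the other does not, which are not counts of 0.

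UMIs of members were summed per library with Python 3.11.15, numpy 2.4.6, pandas 2.3.3 and scipy 1.17.1, over 10198 genes listed in both tables. Scrublet was run in scanpy 1.11.5. Cells are not replicates, so no p-value was computed, and intervals and floors (3 UMIs in place of a sum of 0) cover counting error only. A floor replaces the sum of 0 and keeps the other library's sum as counted, without its counting error. Carried RNA was estimated from 8 endothelial and 8 mesenchymal markers. The ratio and its interval were tried on simulated Poisson sums without variation between cells, so that trial does not cover the unequal cells of these libraries.

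Members and gene lists were chosen with earlier results of these data known. Genes were named by a rule: all measured genes of the surfactant, lamellar body, transcription factor and lysozyme lists, the 12 highest and 12 lowest ratios, ranked by the end of the interval closest to 0 (30 UMIs required), up to 4 genes per other list ranked likewise, and the 12 genes most variable over distal members. Further members of a list were named for their role or as calls after their values were seen. Alternatives changed the Sftpc limit, gene minimum, doublets, Malat1, depth, scaling, cell weight, UMI minimum and fold. Leaving out the deepest niche members or members with marker UMIs, and sharing the added UMI by depth, were chosen after seeing the data. Promoters came from RefSeq (GRCm38.p6), matched by symbol. Iigp1, Ly6a, Ifi27l2a and Zbp1 had no entry.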

Additional observations from a re-analysis of the deposited data

Results flagged for a closer look

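Several genes were called in opposite directions in alveolar type 2 members and in mesenchymal-marker barcodes of the same libraries. The difference between the classes was not tested. Scd1 had a log2 ratio of 1.87 in members and -1.98 in mesenchymal-marker barcodes, where its level was low (9.19 CPM in niche and 36.4 CPM in distal barcodes). Areg had -2.34 in members and 2.77 in mesenchymal-marker barcodes (27.9 CPM in niche and 3.52 CPM in distal barcodes). Gclc had 1.19 in members and -1.02 (-1.85 to -0.12) in mesenchymal-marker barcodes, at 11.1 CPM in niche and 22.3 CPM in distal barcodes. Sftpc stood at 125 CPM in niche and 2037 CPM in distal mesenchymal-marker barcodes. The part of carried type 2 RNA in the ratios of those barcodes was not tested. Inmt, a methyltransferase gene of lung mesenchyme, had 1.66 and -1.50. In members Inmt measured 110 CPM in niche and 36.1 CPM in distal cells, beside 44.6 and 36.0 CPM for carried endothelial and mesenchymal RNA, whose part in the ratio was not tested. The haemoglobin gene Hbb-bs had 4.73 and -1.87, on 14 niche and 6 distal UMIs in members. In endothelial-marker barcodes Hbb-bs had 10.07, the direction seen in members, with 4410 CPM in niche and 3.91 CPM in distal barcodes.

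Some genes with UMIs in members were listed in the distal table only and so entered no ratio. They included Chia1, a chitinase gene, with 400 UMIs in 121 distal members, and Retnla, a resistin-like gene, with 290 UMIs in 30 distal members. Egfl6 had 232 UMIs, Myh7 191, C2cd4b 175, Fbp2 169, Prr15l 152, Atp6v1c2 151 and Rbpjl 150. Their niche level is not known from these tables.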

How the results depend on the processing

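With 1 library a group, no alternative tests the difference between conditions, and 16 niche cells limit every niche value. No paired analysis was possible because each group has 1 library. Over all alternatives the interferon median ranged from 2.43 to 3.07 and the MHC class I median from 1.502 to 1.82. With members thinned to 1200 UMIs, 8 interferon and 11 MHC class I genes were called higher, as were 84 of all genes, with 11 lower. Thinning leaves fewer genes measured, so these counts are not shares of the 6934 genes. The numbers measured after thinning are not given, so the list counts cannot be set beside a background share. With a minimum of 30 UMIs, 12 interferon genes and 185 of all 3502 genes then measured were higher. The number of interferon genes measured at that minimum is not given. Scaling without the most abundant genes gave 92 lower genes and a surfactant median of -0.43, and an Sftpc limit of 2% gave -0.46. That median is over 4 genes, among them Sftpc, which chose the cells, so it is a description. The distal share of members (percent) was 9.361 with a limit of 10% and 18.05 with at least 1000 genes. The MHC class II median was 0.35 without members with marker UMIs. Directions reversed for Chil1 (-0.19 without the deepest niche members, -0.38 without members with marker UMIs), Cldn5 (2.19) and Pltp (0.59) at an Sftpc limit of 2%, Ctsh (-0.0354) and Glrx (-1.23) after thinning, Cxcl15 (-0.0268) and the Tmsb4x log2 ratio (-0.02054) without the member with most UMIs, Tmsb4x (-0.0415) at a limit of 10%, and Itga6 (-0.50) without the deepest niche members. The cause of these changes was not tested.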
